A study of Mus musculus with 11 samples.

Results

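The 82 cytosolic ribosomal protein genes described here were taken by symbol from the 42375 named genes of the count table. A member is any Rps, Rpl or Rplp symbol with a number and at most a closing a, x, l or al, plus Rpsa. Of these, 50 are named for the large subunit and 32 for the small subunit. Pseudogenes whose names carry -ps are not among them. Rps4l, counted with the small subunit, is itself annotated as a transcribed processed pseudogene. The filter on low counts was passed by 80 members, 48 large and 32 small, and not by Rpl3l and Rpl10l.

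RNA came from bone marrow derived macrophages of C57BL/6 mice in an M0 or M1 state. For 16 hours the cells had carried a gapmer, an antisense oligonucleotide that directs RNase H to its target, which was either aimed at the lncRNA MERRICAL (KD) or labelled NS. M0 NS, M0 KD and M1 NS had 3 libraries each, numbered 1, 2 and 4, and M1 KD had 2, numbered 5 and 6. M1 KD thus shared no number with another group, and anything particular to its libraries enters every comparison that uses it. The level of MERRICAL was not analysed here, so the knockdown was not checked. Every group received a gapmer, and the M1 stimulus and the number of animals are not described in the labels. Since no label calls the libraries separate cultures, the p-values reflect library-to-library spread that may be technical.

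A cytosolic ribosome joins a large subunit, which forms the peptide bond, to a small subunit, which reads the mRNA. Each is assembled in the nucleolus from ribosomal RNA, most of it made by RNA polymerase I, and from proteins needed in matched amounts. Ribosomal protein mRNAs begin with a run of pyrimidines, the terminal oligopyrimidine (TOP) tract, through which mTOR signalling and LARP1 control their translation and stability.

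RefSeq start regions on GRCm38.p6, from 250 bases before to 50 after the start, matched 61 of the 82 members. Within 50 bases on either side of the start, the longest run of C or T had a median of 10 bases in the members and 7 bases over 27025 genes. A run of at least 8 bases stood in 50 of 61 members (81.97%) and in 35.7% of all genes. The 30-base windows below are read 5′ to 3′ on the gene's strand, with that run in capitals. They show members on which the results turn, the first 7 with runs of 9 to 13 bases and the last 4 with runs of 5 to 7 bases. In the order below, the runs begin at 39, 23, -18, 28, 29, -2, -12, -36, -9, 41 and -21 from the annotated start. The run of Rps24 ends at the limit of the search. Whether any of these runs is the TOP tract was not tested.
Rps24, chr14:24490698-24490727, plus strand: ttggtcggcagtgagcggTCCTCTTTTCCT
Rps7, chr12:28635911-28635940, minus strand: ctgtccccaCCTCTTTTCTTCCgccacccg
Rpl31, chr1:39367824-39367853, plus strand: ctcgccacaCCTCTTCCTCCTCgcctcccc
Rpl36a, chrX:134585672-134585701, plus strand: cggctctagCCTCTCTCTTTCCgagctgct
Rpl36al, chr12:69184020-69184049, minus strand: gctctgttcgTCCCTTTCCTgttcggcgcg
Rps27, chr3:90213632-90213661, minus strand: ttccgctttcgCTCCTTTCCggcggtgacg
Rps27l, chr9:66946063-66946092, plus strand: actcctctccaCTCCTCCCCgccgcctcta
Rpl24, chr16:55966227-55966256, plus strand: acctcaaacccaCTCCCCgccaatgctgta
Rpl10a, chr17:28328450-28328479, plus strand: cgcgtggtggcgCCCCCCCagcggccgcaa
Rps4x, chrX:102189342-102189371, minus strand: cgcgcagcctccgaccctaaTTTCTTCgtt
Rps28, chr17:33824567-33824596, minus strand: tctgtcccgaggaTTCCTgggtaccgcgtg
Over the whole region, CTTTCC stood on the sense strand in 23 of 61 members (37.7%) and in 14.05% of all genes. CCGGAAG, a core read by ETS factors, stood on either strand in 24 of 61 members (39.3%) and in 9.12% of all genes. AAGATGG, a core read by YY1, stood on either strand in 8 of 61 members (13.1%) and in 6.48% of all genes. CTTTCC can overlap CCGGAAG in CC, and CCGGAAG can overlap AAGATGG in AAG, and a match describes letters only.

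Some libraries stood apart within their group. Total counts ran from 30040632 to 43250392, and the members took 1.25% to 2.601% of them. Of the 80 tested members, 79 were highest within M0 NS in library 4, 65 within M1 NS in library 2 and 77 within M1 KD in library 5, where 39.7%, 34.4% and 51.3% of all genes were. Within M0 KD, 60 were highest in library 4, where 39.9% of all genes were, and 65 were lowest in library 1. Levels are given as CPM, counts scaled to a library total of 1000000 after TMM correction. All 10 macrophage markers were detected, with sums of 26059 to 27466 CPM in M0 NS, 19682 to 21559 in M0 KD, 13866 to 16057 in M1 NS and 15034 to 18170.2 in M1 KD. The sum does not stand for each marker. In M1 NS against M0 NS 5 were called higher and 4 lower (edgeR's quasi-likelihood test, adjusted p under 0.05), with a median log2 fold change of 0.22. Of all genes, 26.9% were called higher and 28.6% lower there. The 15 neutrophil and granulocyte precursor markers, all detected, summed to 1359 to 2365 CPM in M0 NS, 764 to 835 in M0 KD, 244 to 322 in M1 NS and 218 to 230.4 in M1 KD. The 5 dendritic cell markers, all detected, summed to 9.16 to 10.03 CPM in M0 NS, 5.63 to 11.3 in M0 KD, 100.4 to 333 in M1 NS, and 126 and 601 in M1 KD 5 and 6. They were split as well, with 3 called higher and 2 lower in M1 NS against M0 NS. The 8 T and NK cell markers summed to 13.3 to 22.4 CPM in M0 NS, 9.14 to 20.1 in M0 KD, 1.46 to 4.04 in M1 NS, with Klrb1c at 0, and 8.01 to 10.3 in M1 KD. Only 3 of them passed the filter, with 1 called higher and 2 lower in M1 NS against M0 NS. Mitochondrially encoded mRNAs held 1.01% to 1.13% of counts in M0 NS, 1.27% to 1.44% in M0 KD, 0.485% to 0.886% in M1 NS and 0.519% to 0.7203% in M1 KD, so that M0 NS and M0 KD did not overlap. The part of these differences in the results below was not tested, and fewer cells of a type and less RNA per cell cannot be told apart in bulk RNA.

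Summed over the members as TMM-corrected CPM, ribosomal protein mRNA was highest in M1 KD. The sum was 17143, 17269 and 22138 CPM in M0 NS and 15359, 16463 and 16949 CPM in M0 KD. It was 14997, 18897 and 14898 CPM in M1 NS and 30873 and 22696 CPM in M1 KD. Both M1 KD libraries lay above all others, library 6 narrowly above M0 NS 4, M0 NS lay above M0 KD, and M1 NS overlapped both. This order depended on the scaling. As a share of uncorrected counts, the members held 2.60% in M1 KD 5 but 1.87% in M1 KD 6. In M0 NS they held 1.92%, 1.89% and 2.56%, and in M0 KD 1.78%, 1.89% and 2.02%. In M1 NS they held 1.25%, 1.59% and 1.34%, below every other library. Both M1 KD libraries thus lay above M1 NS by either measure. The ratio of large to small subunit counts was 1.43 ± 0.00968 in M0 NS, 1.48 ± 0.02004 in M0 KD, 1.45 ± 0.0149 in M1 NS (SD, n = 3 each) and 1.42 ± 0.00133 in M1 KD (SD, n = 2). Both subunits thus kept nearly the same proportion while their sums differed, with M0 KD highest and M1 KD lowest in the mean ratio. Single libraries came close or overlapped. M1 NS 1, at 1.463, lay above M0 KD 4, at 1.460, and M0 NS 4, at 1.4236, was next to M1 KD 5, at 1.4234.

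**Figure D1:**
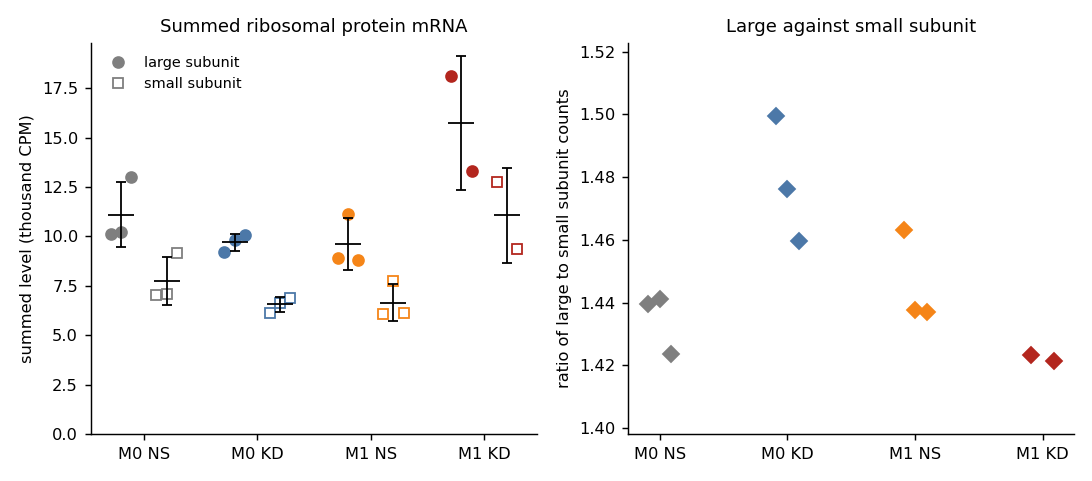
Left, summed level of the large subunit genes (filled circles) and small subunit genes (open squares) in CPM divided by 1000, 1 point per library, with mean and SD of each group in black. Right, ratio of large to small subunit counts per library on an axis that does not start at 0. After TMM correction M1 KD has the highest sums in both subunits, and its mean ratio of 1.42 is below the other groups.

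Levels of different members were compared per kilobase of 1 GENCODE M21 transcript each. As the mean over 11 libraries, Rps14 (853 CPM per kilobase), the stalk gene Rplp1 (815) and Rpl10 (671) were highest. The lowest were paralogs: Rpl39l at 0.335, Rpl3l at 0.05003 and Rpl10l, without a count in any library.

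M1 NS against M0 NS compares the states under the NS gapmer. Of 80 members, 17 fell and 3 rose (edgeR's quasi-likelihood test, adjusted p under 0.05), while 28.6% of all genes were called lower and 26.9% higher. In the small subunit 9 fell and 1 rose of 32, and in the large subunit 8 fell and 2 rose of 48. The median log2 fold change was -0.24, against -0.04 for all genes. Rps24, Rpl24 and Rpl36al were the members that rose.

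Rps24, a small subunit protein whose mRNA has alternative closing exons, lies at chr14:24487125-24496959 on the plus strand (GRCm38). It stood at 225, 239 and 269 CPM in M0 NS and 490.1, 474 and 418 CPM in M1 NS, with no overlap. Its log2 fold change was 0.92, SE 0.13, adjusted p = 7.62e-05, and 0.52 to 1.02 over all alternatives. Rpl24, which bridges to the small subunit, stood at 53.6, 55.6 and 53.2 CPM and 79.5, 59.6 and 93.3 CPM (0.52, SE 0.16, adjusted p = 0.01504), M1 NS 2 being closest to M0 NS. With scaling by library size alone it had 0.14 (adjusted p = 0.509). Rpl36al, a paralog of Rpl36a, stood at 77.4, 77.8 and 97.8 CPM and 102, 137 and 110.4 CPM (0.46, SE 0.14, adjusted p = 0.01398). Its groups did not overlap, and it had 0.07 (adjusted p = 0.695) with library size alone, 0.34 (adjusted p = 0.07002) with upper-quartile factors and 0.33 (adjusted p = 0.0523) without M1 NS 2, and 0.41 (adjusted p = 0.0623) and 0.41 (adjusted p = 0.0599) without M0 NS 1 or 2.

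Rpl10a had the largest fall. It stood at 146, 142 and 211 CPM in M0 NS and 86.6, 102 and 57.1 CPM in M1 NS (-1.02, SE 0.26, adjusted p = 0.00552), with no overlap. Rps4x, the X-linked form of this small subunit protein, stood at 386, 388 and 414 CPM and 257, 261 and 259 CPM (-0.61, SE 0.14, adjusted p = 0.00261), again apart. Rps7, which also binds MDM2, stood at 282, 289 and 311 CPM and 193, 176 and 204 CPM (-0.62, SE 0.17, adjusted p = 0.00883). Rps21 stood at 102, 101 and 160 CPM and 58.1, 106 and 65.5 CPM (-0.67, SE 0.23, adjusted p = 0.0252). M1 NS 2 overlapped M0 NS for Rps21, whose value was -0.41 (adjusted p = 0.133) without M0 NS 4, -0.50 (adjusted p = 0.1098) without M1 NS 1 and -0.55 (adjusted p = 0.0906) without M1 NS 4. Rpsa, Rps27a and Rpl22 also fell, by 0.60, 0.57 and 0.39 (adjusted p = 0.0199, 0.0241 and 0.0299). Rpl22 had -0.28 (adjusted p = 0.123) without M0 NS 4, -0.30 (adjusted p = 0.128) without M1 NS 1 and -0.39 (adjusted p = 0.0519) without M1 NS 2.

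The number of members that fell depended on single libraries and on the scaling. It was 6 without M0 NS 4, 5 without M1 NS 1 and 10 without M1 NS 4. Of all genes, 50.4%, 48.6% and 57.7% were called there in either direction, against 55.5% in the main fit. Without M0 NS 4, M1 NS 2 and M1 KD 5 together the members' median was -0.23. Scaling by library size alone moved the median of all genes to -0.42 and gave 53 lower and 1 higher, and upper-quartile factors gave 29 lower. Of all genes, 58.5% and 55.6% were called under these 2 scalings. The number that rose was 5 without M0 NS 4. The median of the members was -0.11 without M0 NS 4, -0.63 with library size alone and -0.37 with upper-quartile factors.

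M0 KD against M0 NS compares the gapmers in M0 cells. By edgeR's quasi-likelihood test 0 members were called, as were 0% of all genes, and DESeq2 and limma-voom called 0 members. At an unadjusted p under 0.05 there were 4 members and 13% of all genes, and the lowest adjusted p was 0.312. The fold change was below 0 in 76 of 80 members, with a median of -0.21 on the log2 scale against 0.00 for all genes. The groups did not overlap, with M0 KD lower, in 33 of 80 members and in 17.9% of all genes. Mitochondrially encoded mRNA held 1.27% to 1.44% of counts in M0 KD and 1.01% to 1.13% in M0 NS, and its part in this difference was not tested. Without M0 NS 4 the median was -0.08. Rpl31, at the exit of the peptide tunnel, stood at 273, 275 and 365 CPM in M0 NS and 197, 228 and 235 CPM in M0 KD (-0.47, SE 0.24, adjusted p = 0.413), and M0 NS 4 was the highest library. Rpl37 had -0.49, SE 0.25, adjusted p = 0.419. At the upper end Rps27l had 0.06, SE 0.17, adjusted p = 0.882, and Rpl7 0.04, SE 0.13, adjusted p = 0.909.

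M1 KD against M1 NS compares the gapmers in M1 cells, and most of the family rose. The groups share no library number, and whether the gapmer or something particular to the M1 KD libraries made this difference was not tested. Of 80 members 60 rose and 1 fell, while 17.6% of all genes were called higher and 19.2% lower (edgeR's quasi-likelihood test). In the large subunit 35 of 48 rose, with a median log2 fold change of 0.76, and in the small subunit 25 of 32, with a median of 0.68, against 0.00 for all genes. The groups lay apart with M1 KD higher in 58 of 80 members and in 26.1% of all genes. Without M1 KD 5, which leaves 1 library in M1 KD, the median was 0.47. Without M0 NS 4, M1 NS 2 and M1 KD 5 together it was 0.59, with -0.03 for all genes in both settings. A fit of these groups alone gave 39, and removal of a trend in length, GC and exons gave 39. Of all genes, 22.9% and 39.7% were called there in either direction, against 36.8% in the main fit.

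**Figure D2:**
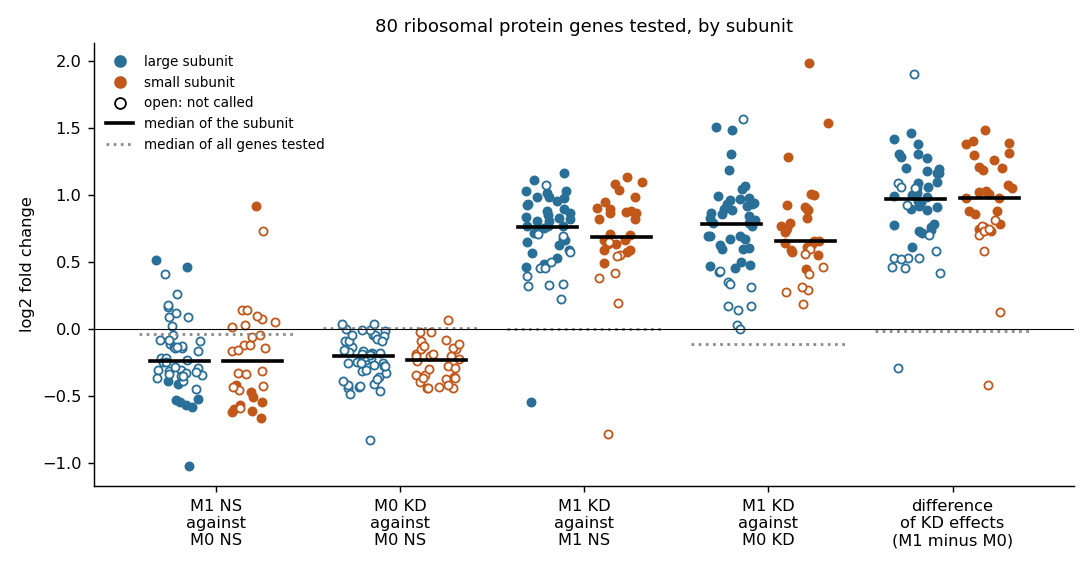
Log2 fold change of each of the 80 tested members in 4 comparisons and in the difference of KD effects, with the large subunit in blue and the small subunit in orange, filled where called at an adjusted p under 0.05. Black lines are subunit medians and dotted lines the median of all genes. In M1 KD against M1 NS the subunit medians are 0.76 and 0.68, and Rpl36al is the filled point below 0.

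Rpl32 had the largest called rise. It stood at 126, 184 and 117 CPM in M1 NS and 391 and 249.6 CPM in M1 KD (1.17, SE 0.25, adjusted p = 0.00328), and had 0.80 (adjusted p = 0.0566) without M1 KD 5. Rps12, in the beak of the small subunit, stood at 152, 205 and 149 CPM and 472 and 270.3 CPM (1.14, SE 0.24, adjusted p = 0.00365), with 0.67 (adjusted p = 0.0741) without M1 KD 5. For both the groups did not overlap, and M1 KD 5 was far above M1 KD 6. Rpl17, near the tunnel exit, stood at 209, 212 and 211 CPM and 535 and 375 CPM (1.11, SE 0.16, adjusted p = 0.000264), and Rps7 at 193, 176 and 204 CPM and 511 and 307 CPM (1.10, SE 0.19, adjusted p = 0.00101). Without M1 KD 5 they had 0.83 (adjusted p = 0.00362) and 0.68 (adjusted p = 0.0158). Rps24 rose as well, to 877 and 950.2 CPM (0.99, SE 0.14, adjusted p = 0.000302), and with Rps27l and Rpl3 was higher in M1 KD 6 than in M1 KD 5.

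The P stalk recruits elongation factors to the large subunit. Its base, Rplp0, stood at 478, 628 and 465 CPM in M1 NS and 1011 and 751 CPM in M1 KD (0.75, SE 0.19, adjusted p = 0.008901). Rplp1 stood at 272, 424 and 259.5 CPM and 780.4 and 505 CPM (1.01, SE 0.25, adjusted p = 0.00725), and neither overlapped. Rplp2 had 0.50, SE 0.24, adjusted p = 0.1298, its 240.4 and 188 CPM in M1 KD overlapping 129, 200.5 and 125 CPM in M1 NS. Rps6, the substrate of S6 kinase, had 0.55, SE 0.21, adjusted p = 0.0606. Rpsa, also known as a laminin receptor, rose by 0.88 (adjusted p = 0.00713), and Rps27a, made as a ubiquitin fusion, by 0.83 (adjusted p = 0.00982). Rpl10, which joins the large subunit late, rose by 0.67 (adjusted p = 0.00344). Rpl22 rose by 0.48 (adjusted p = 0.0271), and had 0.38 (adjusted p = 0.182) without M1 KD 5, 0.40 (adjusted p = 0.0966) without M1 NS 1, 0.44 (adjusted p = 0.0684) with library size alone and 0.52 (adjusted p = 0.0803) in the groups alone.

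**Figure D3:**
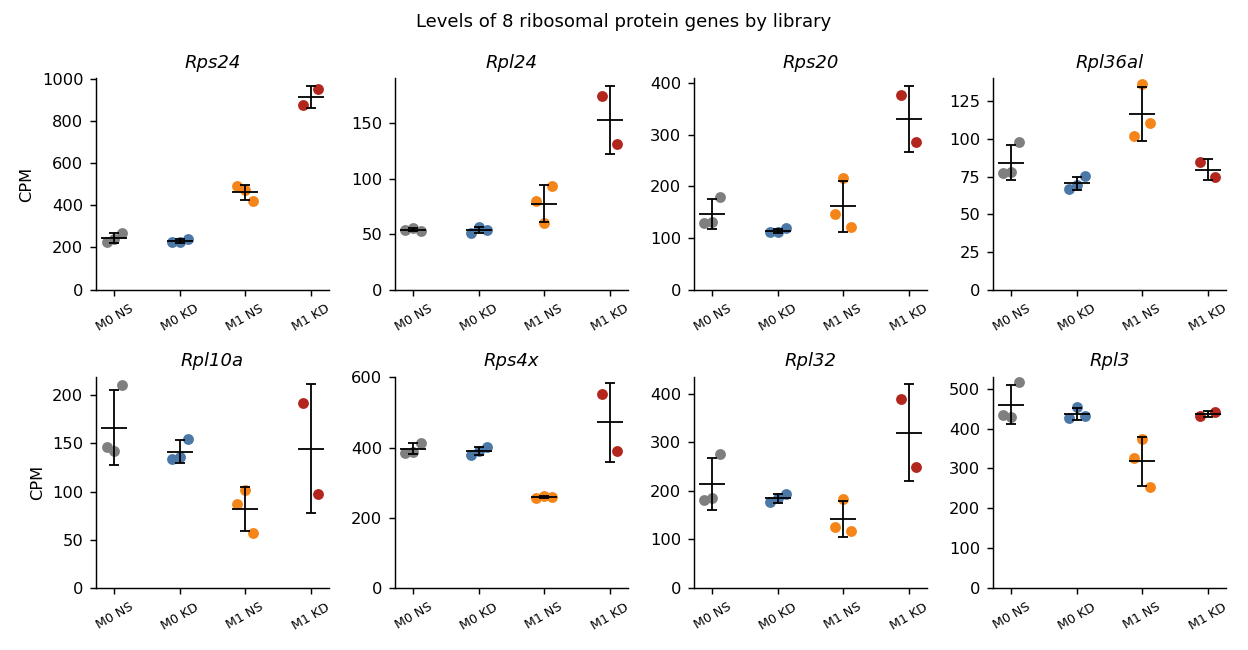
Level in CPM of 8 members in every library, with mean and SD per group. Rps24 stands at 490.1, 474 and 418 CPM in M1 NS and 877 and 950.2 CPM in M1 KD, while Rpl36al is higher in M1 NS, at 102, 137 and 110.4 CPM, than in M1 KD, at 84.4 and 74.6 CPM.

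M1 KD against M0 KD compares the states under the MERRICAL gapmer and shares its M1 KD libraries with the comparison before. Of 80 members 61 rose and 0 fell (edgeR's quasi-likelihood test), while 26.9% of all genes were called higher and 31.4% lower, and 65 members and 62.5% of all genes had an unadjusted p under 0.05. DESeq2 called 0 lower and limma-voom 0. The median was 0.71 against -0.11 for all genes. Rps24 stood at 224, 226 and 239.9 CPM in M0 KD, far below M1 KD (1.99, SE 0.14, adjusted p = 3.43e-07). Rps20 stood at 112, 111 and 119 CPM in M0 KD and 377 and 286 CPM in M1 KD (1.54, SE 0.23, adjusted p = 0.0001204). Rpl24 stood at 51.2, 56.6 and 53.5 CPM and 175 and 131 CPM (1.51, SE 0.17, adjusted p = 1.50e-05). Rpl41, which encodes the shortest of these proteins, had 1.49, SE 0.32, adjusted p = 0.00161. Rpl3, whose protein reaches toward the peptidyl transferase centre, stood at 426, 453 and 431 CPM and 430.4 and 441 CPM, which overlap (adjusted p = 0.9903). Without M1 KD 5, which leaves 1 library in M1 KD, the median was 0.46. With the trend removed 37 members rose, with a median of 0.40. Of all genes, 59.05% were called there in either direction, against 58.3% in the main fit. Without M0 NS 4, M1 NS 2 and M1 KD 5 together the median was 0.45. Library size alone moved the median of all genes to -0.59 and gave 8 higher and 1 lower, Rpl3, with a members' median of 0.23.

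The KD effect, taken as KD against NS, differed between the states. M1 KD shared no library number with the other groups. Whether the gapmer or something particular to the M1 KD libraries made this difference was not tested. The contrast of both effects was higher in M1 for 57 of 80 members and lower for 0 (edgeR's quasi-likelihood test), while 13.1% of all genes were called higher and 14.2% lower, and 71 members and 39.5% of all genes had an unadjusted p under 0.05. DESeq2 called 0 lower and limma-voom 0. The median was 0.98 on the log2 scale against -0.02 for all genes, with 0.97 in the large and 0.98 in the small subunit. The number higher was 36 without M0 KD 1 and 27 with the trend removed. Of all genes, 20.3% and 24.8% were called there in either direction, against 27.3% in the main fit. Without M1 KD 5, which leaves 1 library in M1 KD, the median was 0.66. It was 0.63 without M0 NS 4, M1 NS 2 and M1 KD 5 together and 0.60 with the trend removed. Rps20 had 1.40, SE 0.31, adjusted p = 0.00706.

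Paralogs took different courses. Rpl36a lies at chrX:134585654-134588062 on the plus strand and Rpl36al at chr12:69182731-69184083 on the minus strand (GRCm38). Their coding starts, 150 bases from GENCODE M21 with the 23 differing bases in capitals, show where reads can be told apart.
Rpl36a: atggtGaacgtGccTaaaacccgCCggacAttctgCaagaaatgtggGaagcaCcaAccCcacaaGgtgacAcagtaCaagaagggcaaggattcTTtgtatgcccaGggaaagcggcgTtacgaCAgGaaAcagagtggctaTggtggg
Rpl36al: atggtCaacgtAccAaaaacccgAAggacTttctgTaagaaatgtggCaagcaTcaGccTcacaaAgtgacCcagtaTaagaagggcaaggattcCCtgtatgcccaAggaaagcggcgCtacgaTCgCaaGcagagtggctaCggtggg
Over 321 coding bases they are 87.9% identical, and the longest stretch both transcripts share is 24 bases. Rpl36a stood at 55.7, 74.5 and 64.8 CPM in M1 NS and 122 and 100.1 CPM in M1 KD (0.77, SE 0.19, adjusted p = 0.00767), with 0.62 (adjusted p = 0.0811) without M1 KD 5. Rpl36al, the member that fell, stood at 102, 137 and 110.4 CPM and 84.4 and 74.6 CPM (-0.55, SE 0.16, adjusted p = 0.0183). It had -0.47 (adjusted p = 0.115) without M1 KD 6, -0.40 (adjusted p = 0.0795) with upper-quartile factors and -0.51 (adjusted p = 0.105) in a fit of these groups alone.

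Within a library, the share of a paralog does not depend on scaling. Rpl36al made up 50.9% ± 2.65 of the pair's counts in M0 NS, 46.2% ± 1.03 in M0 KD, 64.1% ± 0.989 in M1 NS (SD, n = 3 each) and 41.8% ± 1.24 in M1 KD (SD, n = 2). The M0 NS libraries lay between 47.9% and 52.8%, the M0 KD libraries between 45.04% and 46.8% and the M1 NS libraries between 63.01% and 64.7%, and M1 KD was at 40.96% and 42.7%. No groups overlapped, and the share was highest in M1 NS and lowest in M1 KD. Shares were not tested.

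**Figure D4:**
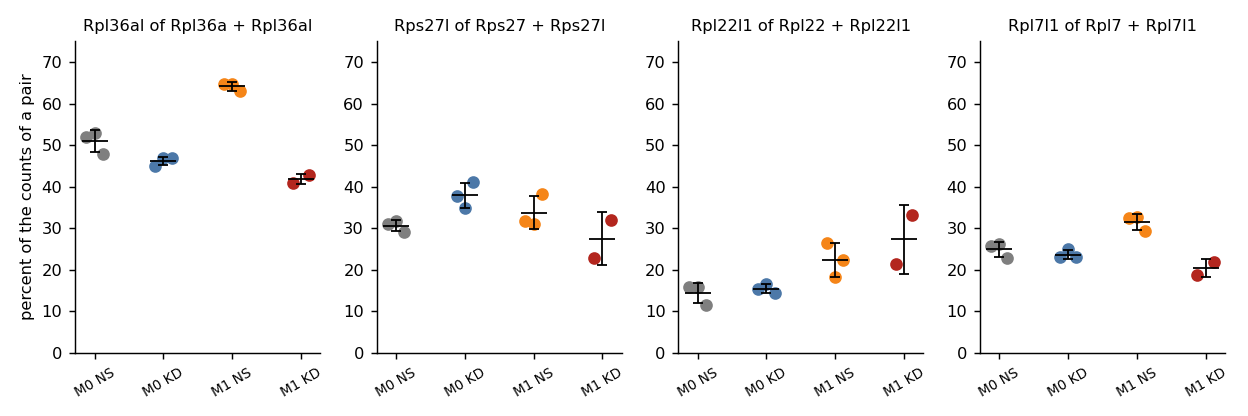
Share of a paralog in the counts of its pair, in percent, 1 point per library with mean and SD per group. Rpl36al has a mean of 64.1% in M1 NS and 41.8% in M1 KD, while Rps27l has an SD of 6.404 in M1 KD.

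Rps27, at chr3:90212522-90213651 on the minus strand, and Rps27l, a known p53 target at chr9:66946086-66949516 on the plus strand, differ more, at 35 of the first 150 coding bases.
Rps27: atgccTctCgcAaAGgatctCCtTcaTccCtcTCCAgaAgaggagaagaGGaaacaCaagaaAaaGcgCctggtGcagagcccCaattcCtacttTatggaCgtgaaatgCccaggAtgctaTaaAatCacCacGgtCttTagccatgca
Rps27l: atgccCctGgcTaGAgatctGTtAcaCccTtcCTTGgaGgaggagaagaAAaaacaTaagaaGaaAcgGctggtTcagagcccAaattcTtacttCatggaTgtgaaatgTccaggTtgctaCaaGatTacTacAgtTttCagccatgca
They are 76.1% identical over 255 coding bases, and their transcripts share no stretch above 11 bases. Rps27 stood at 94.4, 127 and 106 CPM in M1 NS and 183 and 156 CPM in M1 KD (0.63, SE 0.16, adjusted p = 0.00951), with 0.50 (adjusted p = 0.0911) without M1 KD 5 and 0.24 (adjusted p = 0.138) with the trend removed. Rps27l stood at 44.04, 57.4 and 66.1 CPM and 54.4 and 73.2 CPM, which overlap (0.19, SE 0.19, adjusted p = 0.442). Rps27l held 30.6% ± 1.34 of the pair in M0 NS, 37.9% ± 3.03 in M0 KD, 33.7% ± 4.005 in M1 NS and 27.4% ± 6.404 in M1 KD.

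The other pairs inside the naming rule were more one-sided. Rps4l, annotated as a transcribed processed pseudogene, held 0.427% to 1.39% of the counts shared with Rps4x as group means and was called in no comparison. Rpl39l had 3 to 17 counts per library and Rpl3l 1 to 7 in all. Rpl39l was called in no comparison, and Rpl3l was not tested. Of the paralogs outside the naming rule, Rpl22l1 stood at 25.4, 18.01 and 25.7 CPM in M1 NS and 32.7 and 52.1 CPM in M1 KD. It rose (0.88, SE 0.20, adjusted p = 0.00493), and had 0.50 (adjusted p = 0.0859) without M1 KD 6. Rpl7l1 had -0.09 (adjusted p = 0.5701), while Rpl7 rose by 0.77 (adjusted p = 0.00154). Its share of the pair was 18.8% and 21.9% in M1 KD, below the lowest M1 NS library at 29.3%.

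Genes that make, regulate or accompany ribosomal proteins were read from 4 lists. Their counts stand beside the shares of all genes given above, 17.6% called higher and 19.2% lower in M1 KD against M1 NS and 26.9% and 28.6% in M1 NS against M0 NS. Of the 6 ribosomal proteins outside the naming rule, 4 rose and 0 fell in M1 KD against M1 NS, Rps3a1 with 0.60, SE 0.15, adjusted p = 0.00704. Rps3a1 had 0.39 (adjusted p = 0.101) without M1 KD 5, 0.27 (adjusted p = 0.118) with the trend removed and 0.64 (adjusted p = 0.0598) in the groups alone. In M1 NS against M0 NS 0 rose and 1 fell, Rps3a1, whose call was lost without any 1 of M0 NS 1, 2 or 4, M1 NS 1 or 4, or M0 KD 1 or 2. Of 24 other TOP mRNA genes, 9 rose and 1 fell in M1 KD against M1 NS. Tpt1, an abundant TOP mRNA, went from 419 ± 25.5 to 1069 ± 260.5 CPM (1.35, SE 0.16, adjusted p = 9.84e-05), and Eif2s3x, an initiation factor subunit, from 63.98 ± 6.46 to 24.7 ± 5.65 CPM (-1.37, SE 0.16, adjusted p = 7.60e-05). In M1 NS against M0 NS 8 rose and 3 fell, among them the snoRNA host gene Snhg6 with 1.81, SE 0.17, adjusted p = 2.59e-06 and the initiation factor Eif4b with -0.67, SE 0.12, adjusted p = 0.000546. Without M1 KD 5 the rises in M1 KD numbered 1 outside the rule and 4 among TOP genes. Without M1 NS 1 or without M1 NS 4 those outside the rule numbered 2.

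Of 22 regulators, 1 rose and 11 fell in M1 KD against M1 NS, and 7 fell without M1 KD 6. Eif4g1, the scaffold of cap-dependent initiation, went from 491 ± 71.5 to 269 ± 13.5 CPM (-0.87, SE 0.15, adjusted p = 0.00112), and the kinase gene Rps6ka3 had -0.92, SE 0.17, adjusted p = 0.00149. In M1 NS against M0 NS 8 rose and 5 fell. Larp1, which binds the TOP tract, went from 142 ± 7.59 to 450.1 ± 67.2 CPM (1.67, SE 0.15, adjusted p = 1.71e-06), and Eef2k, the kinase that inhibits elongation factor eEF2, had -4.35, SE 0.17, adjusted p = 2.87e-09.

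Polymerase I and ribosome assembly genes had medians of the opposite sign to the ribosomal proteins in both comparisons. Of 35 such genes, 18 rose and 2 fell in M1 NS against M0 NS, with a median of 0.46 where the ribosomal proteins had -0.24. Eif6, which keeps new large subunits from joining, went from 80.98 ± 5.62 to 247 ± 39.7 CPM (1.61, SE 0.15, adjusted p = 1.93e-06), and Ltv1, a small subunit assembly factor, from 16.6 ± 1.38 to 30.9 ± 0.683 CPM (0.89, SE 0.11, adjusted p = 2.05e-05), with 0.51 for Ltv1 under library size alone. In M1 KD against M1 NS 3 rose and 18 fell, with a median of -0.44 where the ribosomal proteins had 0.73. Utp20, of the early small subunit precursor, went from 31.04 ± 2.19 to 8.898 ± 0.378 CPM (-1.80, SE 0.13, adjusted p = 5.83e-06), and Mdn1, an ATPase of large subunit assembly, from 47.2 ± 3.98 to 19.6 ± 0.524 CPM (-1.27, SE 0.14, adjusted p = 5.82e-05), with -0.49 for Mdn1 when the trend was removed. With library size alone 5 rose and 5 fell in M1 NS, with a median of 0.07 where all genes had -0.42 and the ribosomal proteins -0.63. Without M1 KD 5, 0 rose and 13 fell in M1 KD, and 1 rose without M0 NS 1, 2 or 4, M1 NS 1 or M0 KD 1 or 2. In M0 KD against M0 NS 0 genes of the 4 lists were called by edgeR, where 9 assembly genes, 8 regulators, 1 TOP gene and 1 outside the rule had an unadjusted p under 0.05, as did 13% of all genes. DESeq2 called 1, 2, 1 and 0 of them, and limma-voom 0, 0, 0 and 0. The comparisons share the M1 NS libraries, and a difference between a list and the ribosomal proteins was not tested.

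**Figure D5:**
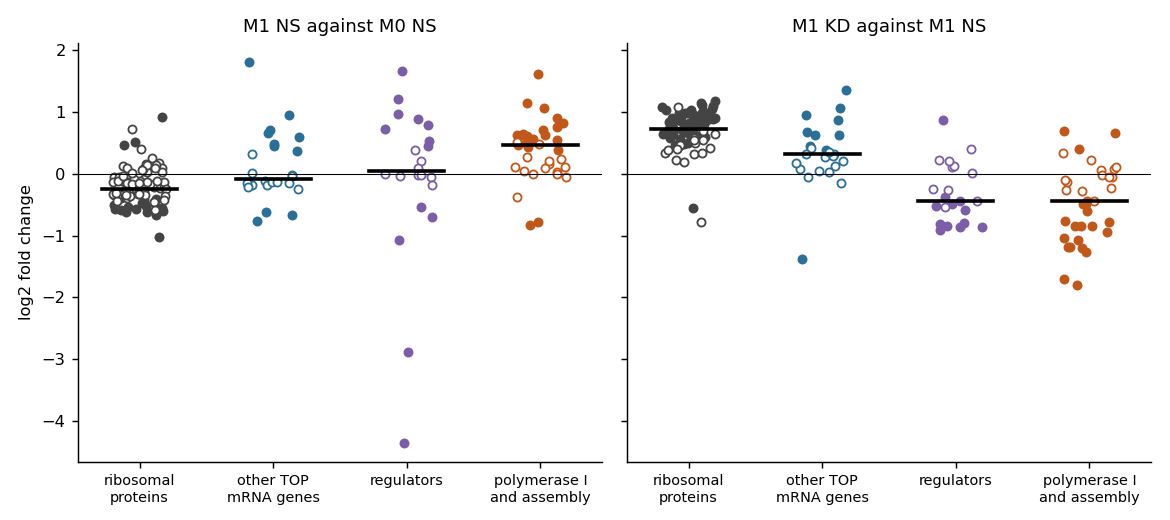
Log2 fold change of single genes in 4 groups (ribosomal proteins, other TOP mRNA genes, regulators, polymerase I and assembly) for M1 NS against M0 NS and for M1 KD against M1 NS, filled where called at an adjusted p under 0.05, with the median of each group. The medians are -0.24 and 0.73 for the ribosomal proteins and 0.46 and -0.44 for polymerase I and assembly genes.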

How the data were processed

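Counts per gene and library were deposited by the authors, unnormalized, and 1 blank entry was left out (at most 0.000305% of a library). The submitters' processing notes name GRCm38, Trimmomatic 0.36 for trimming, STAR 2.5.2b for alignment and, for counting, featureCounts from Subread 1.5.2. Strand setting, annotation release and treatment of reads that map to several places, which bear on paralogs and pseudogenes, were all not given in the sources used here. A second, normalized table was not used.

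All 11 libraries were fitted together in edgeR 4.0.16 (R 4.3.3), with a coefficient per group. The fit used filterByExpr (minimum count 10, minimum total 15, leaving 15024 genes), TMM factors and the robust quasi-likelihood test, with Benjamini-Hochberg adjustment over all genes and calls under 0.05. SE belongs to the log2 fold change. The procedure was run on simulated counts for M1 KD against M1 NS only, with far fewer genes changed than were called here. That run does not bear on the dependence on scaling, and its outcome is not reported here. Alternatives were other scalings and filters, the robust option off, only the groups compared, a block for the label number, each library left out, removal of a trend in length, GC and exons, -ps rows added to their parent, DESeq2 1.42.0 and limma-voom (limma 3.58.1). Leaving out M0 NS 4, M1 NS 2 and M1 KD 5 together was added after seeing the data.

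Members and lists were chosen with earlier results of these data known. The text names paralog pairs, the 4 largest called rises and falls per comparison with a mean log2 CPM of 3 or more (filled up to 2 where fewer were called), calls against the majority, the P stalk, Rps6, Rpsa, Rps27a, Rpl10 and Rpl22, the 3 extremes of level per length, and from each other list the 2 called genes with the smallest p in M1 NS against M0 NS and in M1 KD against M1 NS. The names of the members with an unadjusted p under 0.05 in M0 KD are not reported here. Transcripts and positions are from GENCODE M21.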

Additional observations from a re-analysis of the deposited data

Results flagged for a closer look

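The KD effect, taken as KD against NS, differed between M1 and M0 cells for 57 of 80 tested members. The test was of the difference itself (edgeR's quasi-likelihood test), and it called 13.1% of all genes higher and 14.2% lower. Whether the difference came from the gapmer or from the M1 KD libraries, which share no number with the other groups, was not tested. The largest called log2 differences, M1 minus M0, were 1.48 for Rps28, 1.46 for Rpl41, 1.42 for Rpl31 and 1.40 for Rps20. Rps28 stood at 96.5, 102 and 168 CPM in M0 NS and 90.00, 88.01 and 99.9 CPM in M0 KD, and at 57.5, 115 and 71.2 CPM in M1 NS and 198 and 146 CPM in M1 KD. M0 NS 4, M1 NS 2 and M1 KD 5 were the highest of their groups for Rps28. Without M1 KD 5 the difference was 1.24 (adjusted p = 0.0713) for Rps28, 1.29 (adjusted p = 0.0958) for Rpl41, 0.86 (adjusted p = 0.0718) for Rpl31 and 1.19 (adjusted p = 0.03696) for Rps20. Rpl41 also lost its call without M0 NS 4, M1 NS 1, M0 KD 1 or M0 KD 2, with differences of 1.19, 1.32, 1.42 and 1.46.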

How the results depend on the processing

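Members called lower in M1 NS against M0 NS numbered 53 with library size alone, 29 with upper-quartile factors, 27 without the 3 libraries named and 5 to 23 with single libraries left out, and those higher 1 with library size alone and 2 to 5. In M1 KD against M1 NS those higher numbered 39 in a fit of the groups alone, 39 with the trend removed and 12 to 69 with single libraries left out, and those lower 0 with upper-quartile factors, 0 in the groups alone and 0 to 1. In M1 KD against M0 KD they numbered 8 higher and 1 lower with library size alone, 37 higher with the trend removed and 23 to 70 with single libraries left out. For the difference of effects they numbered 27 with the trend removed and 16 to 70. In M0 KD against M0 NS every setting run gave 0 members, while over all genes DESeq2 called 181, no filter 385 and the groups alone 1103. Over all genes the share called moved too. In M1 NS against M0 NS it was 55.5% in the main fit and 58.5% with library size alone. For M1 KD against M1 NS it was 36.8%, and 22.9% in the groups alone. For M1 KD against M0 KD it was 58.3%, and 62.9% with library size alone. The lowest counts in comparisons with M1 KD came without M1 KD 5, which leaves 1 library there. The cause of these shifts was not tested, beyond the smaller number of libraries when some are left out.

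With the label number as a replicate block (9 libraries, M1 KD sharing no number), M1 NS against M0 NS had 4 members higher and 15 lower, M0 KD against M0 NS had 0, and 1 ribosomal protein gene outside the rule was higher. Correlations of same-numbered deviations ran from -0.11 to 0.14. Differently numbered libraries were not compared, so this cannot decide whether the numbers pair the libraries.

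For the other lists in M1 NS against M0 NS, library size alone gave 3 lower outside the rule, 2 higher and 15 lower TOP genes, 5 higher and 11 lower regulators, and 5 higher and 5 lower assembly genes. Upper-quartile factors gave 4 higher and 5 lower TOP genes. Outside the rule, median-of-ratios factors, no filter and the groups alone gave 0 lower, and leaving out the 3 libraries gave 1 higher. Single libraries left out gave 0 to 1 higher and 0 to 1 lower outside the rule and 3 to 5 lower TOP genes. In M1 KD against M1 NS the groups alone gave 1 higher outside the rule, 4 higher TOP genes, 0 higher and 6 lower regulators and 1 higher assembly gene. Upper-quartile factors gave 14 higher TOP genes and 6 lower regulators, the trend removed gave 1 higher outside the rule and 3 lower TOP genes, and leaving out the 3 libraries gave 2 higher outside the rule and 1 higher assembly gene. Single libraries left out gave 1 to 4 higher outside the rule, 4 to 11 higher TOP genes, 7 to 11 lower regulators and 0 to 3 higher assembly genes.

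The sign turned for 4 values, of which the first 3 were not called. Rps27l in M0 KD against M0 NS had -0.085 with the trend removed and -0.037 to 0.141 with single libraries left out, and Rpl7 -0.081 with the trend removed. Rpl3 in M1 KD against M0 KD had 0.076 with median-of-ratios factors, 0.013 with upper-quartile factors, 0.011 with a minimum of 1 CPM in 3 libraries, 0.087 in the groups alone, 0.0082 without the 3 libraries, 0.0019 with -ps rows added, 0.068 with DESeq2 and -0.021 to 0.046 with single libraries left out. Rpl10, called in that comparison, had -0.030 with library size alone.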

Other observations

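Across 79 members, Spearman's rho of transcript length with log2 fold change was 0.44 in M0 KD against M0 NS, 0.03 in M1 NS against M0 NS, -0.09 in M1 KD against M1 NS, -0.27 in M1 KD against M0 KD and -0.30 for the difference of KD effects, a description over genes that share libraries.

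The table held 248 rows marked -ps for these genes, with 0.188% to 0.403% of the counts of members and -ps rows together. Rpl31 had the most, 22.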
